A study of Mus musculus with 4 samples.

Results

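Interferon response genes are the genes that cells switch on after interferon binds its receptor. The list examined here is given by name and holds 41 mouse genes, of which 40 were found among the 31053 genes of the count matrices. Mx2 was not analysed here. Their transcripts were followed in 4 libraries of cells sorted for high CD45, the surface marker of blood-derived cells: brain and spleen, each from aged and from young mice. Each of the 4 groups was 1 library, so the aged and young values compare libraries, no difference has a replicate check, and no test was made. The sources used here do not give strain, sex, age in numbers or how many mice went into a library. The labels of all 4 libraries describe tamoxifen injection some weeks before collection and a count of tdTomato-positive NK cells, which could not be tied to particular libraries. All are also labelled neuroblast, a name that was not used for any cell here.

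Type I interferons signal through a receptor on nearly all cells, and the kinases bound to it activate transcription factors, STAT2 and IRF9 among them, that bind the interferon-stimulated response element in the promoters of target genes. Interferon gamma, made mainly by NK and T cells, acts through the gamma-activated site. The products of the target genes block viral entry, RNA translation and release, sense nucleic acids, and feed back on the pathway. In the brain, microglia and the macrophages at the borders (meninges, perivascular spaces and choroid plexus) keep a low level of such transcripts without infection, and in the spleen lymphocytes and myeloid cells do so too.

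Many members lie side by side in the genome. In the GENCODE vM21 annotation of GRCm38, Ifit2, Ifit3, Ifit3b and Ifit1 occupy chromosome 19 from 34550694 to 34650009, Gbp7, Gbp3 and Gbp2 chromosome 3 from 142530342 to 142638008, and Oas2, Oas3 and Oas1a chromosome 5 from 120730333 to 120907521. Neighbouring copies of a family share sequence, and the treatment of reads that match several genes is not stated, so the values of Ifit3 against Ifit3b, of the Gbp genes and of Ifi204 against Ifi206 are uncertain to that extent.

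Promoter windows from RefSeq (GRCm38.p6, 250 bases before to 50 after the transcript start) were matched by symbol for 32 of the 40 members. The letters GAAANNGAAA, a core of the interferon-stimulated response element, were searched on both strands and occurred in windows of 20 of these 32 members (62.5%), against 1079 of 27025 genes (3.99%). The 9-base gamma-activated site TTCNNNGAA, which reads the same on both strands, occurred for 7 of 32 members (21.9%), against 9.55% of all genes. A match describes the letters in the window and shows no binding. The 250 bases before the start are printed for 7 of the members on which the comparisons below turn. They run 5′ to 3′ on the gene's own strand, with each GAAANNGAAA match or its reverse complement in capitals. All 7 hold a match, whereas 12 of the 32 members with a window hold none. Ifi47 and Xaf1, lower in all 3 lymphocyte classes of the spleen, are among these 12 and are not printed. Isg15, Ifi206 and Bst2 were lower in the aged library in both brain macrophage classes, and Ifit3 and Igtp in all 3 lymphocyte classes of the spleen. Cxcl10 and Slfn5 each differed in direction between 1 brain macrophage class and 1 lymphocyte class of the spleen. For Slfn5 this class was NK-like cells (log2 ratio 0.712), and T-like, B-like and myeloid-like spleen cells were at -0.137, -0.546 and -1.13. Isg15 (chr4:156200819-156201068, minus strand) held 3 overlapping matches, Ifit3 (chr19:34583279-34583528, plus strand) 2 on the opposite strand, and Bst2 (chr8:71537473-71537722, minus strand) 2 that overlapped. Ifi206 (chr1:173491319-173491568, minus strand), Igtp (chr11:58199306-58199555, plus strand), Cxcl10 (chr5:92348890-92349139, minus strand) and Slfn5 (chr11:82951852-82952101, plus strand) held 1 each.
Isg15: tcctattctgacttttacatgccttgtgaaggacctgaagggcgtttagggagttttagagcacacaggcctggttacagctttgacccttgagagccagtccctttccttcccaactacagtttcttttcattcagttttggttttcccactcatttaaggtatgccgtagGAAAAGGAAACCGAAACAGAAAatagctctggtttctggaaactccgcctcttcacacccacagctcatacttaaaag
Ifi206: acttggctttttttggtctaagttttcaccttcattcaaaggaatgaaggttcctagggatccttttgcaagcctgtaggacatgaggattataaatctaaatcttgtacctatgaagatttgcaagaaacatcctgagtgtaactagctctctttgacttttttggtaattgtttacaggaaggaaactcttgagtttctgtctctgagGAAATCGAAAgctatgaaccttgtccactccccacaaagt
Bst2: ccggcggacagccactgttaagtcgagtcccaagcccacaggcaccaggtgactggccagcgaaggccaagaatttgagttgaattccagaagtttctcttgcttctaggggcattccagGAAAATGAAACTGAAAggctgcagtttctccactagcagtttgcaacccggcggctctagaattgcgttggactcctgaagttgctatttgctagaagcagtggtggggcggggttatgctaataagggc
Ifit3: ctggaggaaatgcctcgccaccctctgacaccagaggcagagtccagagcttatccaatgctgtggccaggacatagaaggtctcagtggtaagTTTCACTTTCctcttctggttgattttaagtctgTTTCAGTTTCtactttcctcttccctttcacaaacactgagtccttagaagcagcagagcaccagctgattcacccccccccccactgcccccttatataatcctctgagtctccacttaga
Igtp: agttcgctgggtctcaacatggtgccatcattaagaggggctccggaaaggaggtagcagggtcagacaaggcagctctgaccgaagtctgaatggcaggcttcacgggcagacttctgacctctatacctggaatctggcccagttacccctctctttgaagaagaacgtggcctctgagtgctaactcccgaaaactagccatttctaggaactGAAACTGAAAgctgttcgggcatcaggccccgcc
Cxcl10: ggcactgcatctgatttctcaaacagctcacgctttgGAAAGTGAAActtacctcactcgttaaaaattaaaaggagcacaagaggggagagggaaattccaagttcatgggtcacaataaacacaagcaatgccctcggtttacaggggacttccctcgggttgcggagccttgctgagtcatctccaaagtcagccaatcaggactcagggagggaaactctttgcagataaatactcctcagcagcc
Slfn5: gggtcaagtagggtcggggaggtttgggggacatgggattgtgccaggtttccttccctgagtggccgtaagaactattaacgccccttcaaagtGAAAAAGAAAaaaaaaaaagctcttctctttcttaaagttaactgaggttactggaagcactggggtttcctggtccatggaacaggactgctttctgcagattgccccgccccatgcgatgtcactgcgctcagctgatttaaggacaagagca

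The libraries held between 26384220 and 57011537 UMIs (unique molecular identifiers, each counting 1 captured transcript), and 3355 to 11003 cells per library were used, with median depths of 2130 to 4622 UMIs per cell. Of 8777 young brain barcodes that passed the filters, 58.3% had more UMIs in another library, 5101 of them in aged spleen, and were left out. The number of cell barcodes found in both of these libraries was 4762, with 7.09 expected by chance, and it was 7 to 53 for other pairs. Cells were clustered without the interferon response genes and named only from markers. Microglia-like cells numbered 6141 in aged and 2488 in young brain, border macrophage-like cells 985 and 198, and endothelial-like cells 436 and 16. In the spleen there were 749 aged and 1775 young NK-like cells, 1272 and 1323 T-like cells, 1906 and 2375 B-like cells, and 384 and 259 myeloid-like cells (dendritic-like and monocyte-like clusters). Each class was reduced to 1 summed profile per library, and levels are given in CPM (UMIs per 1000000 UMIs of the class) with 95% exact Poisson intervals, ratios as aged over young with 95% exact binomial intervals. Both intervals cover counting error only, with each UMI taken as independent. They cover neither the uneven spread of UMIs over cells nor differences between animals. A member was compared in a class where both libraries together held at least 50 of its UMIs, and a ratio of at least 1.5 in either direction was counted as higher or lower.

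Spleen lymphocytes and border macrophage-like cells had more members lower than higher in the aged library, and microglia-like cells had 5 lower and 4 higher, a split that moved with the cells used. In NK-like cells 13 of 31 members compared were at least 1.5-fold lower and 1 was higher, where 11.1% of all genes compared were lower and 6.46% higher. In T-like cells 13 of 34 members were lower and 1 higher, against 9.16% and 8.58% of all genes. In B-like cells 24 of 35 members were lower and 0 higher, against 9.40% and 5.33% of all genes. In microglia-like cells 5 of 35 members were lower and 4 higher, against 4.70% and 12.9% of all genes. The microglia-like split was 8 lower and 1 higher of 31 with a mitochondrial limit of 5%, 8 and 2 of 35 with doublets kept, and 0 and 8 of 33 with the order-of-magnitude cell cutoff alone. In border macrophage-like cells 21 of 36 members were lower and 1 higher, against 10.0% and 18.2% of all genes. The members' median log2 ratio was -0.51 in NK-like cells (all genes -0.13), -0.46 in T-like cells (all genes -0.07), -0.75 in B-like cells (all genes -0.12) and -0.63 in border macrophage-like cells (all genes 0.05). In microglia-like cells it was -0.000161, against 0.08 over all genes.

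**Figure D1:**
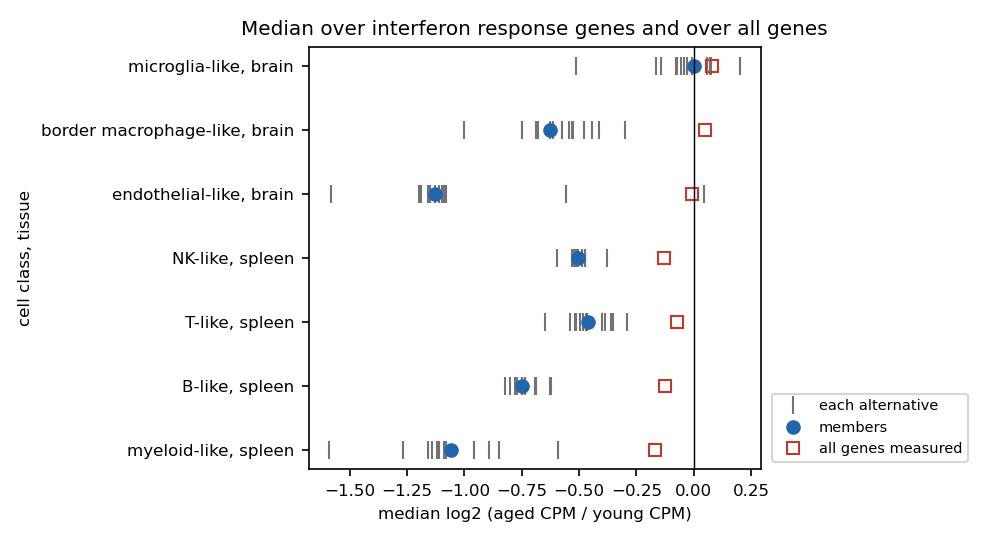
Median log2 ratio of aged to young CPM (x axis) in 7 cell classes (y axis), for the interferon response genes (circles), for all genes with 50 or more UMIs (open squares), and for the interferon response genes under each alternative way of processing (grey ticks). The members' median lies at -0.000161 in microglia-like cells, between -0.75 and -0.46 in the 3 lymphocyte classes, and at -0.63 in border macrophage-like cells.

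**Figure D2:**
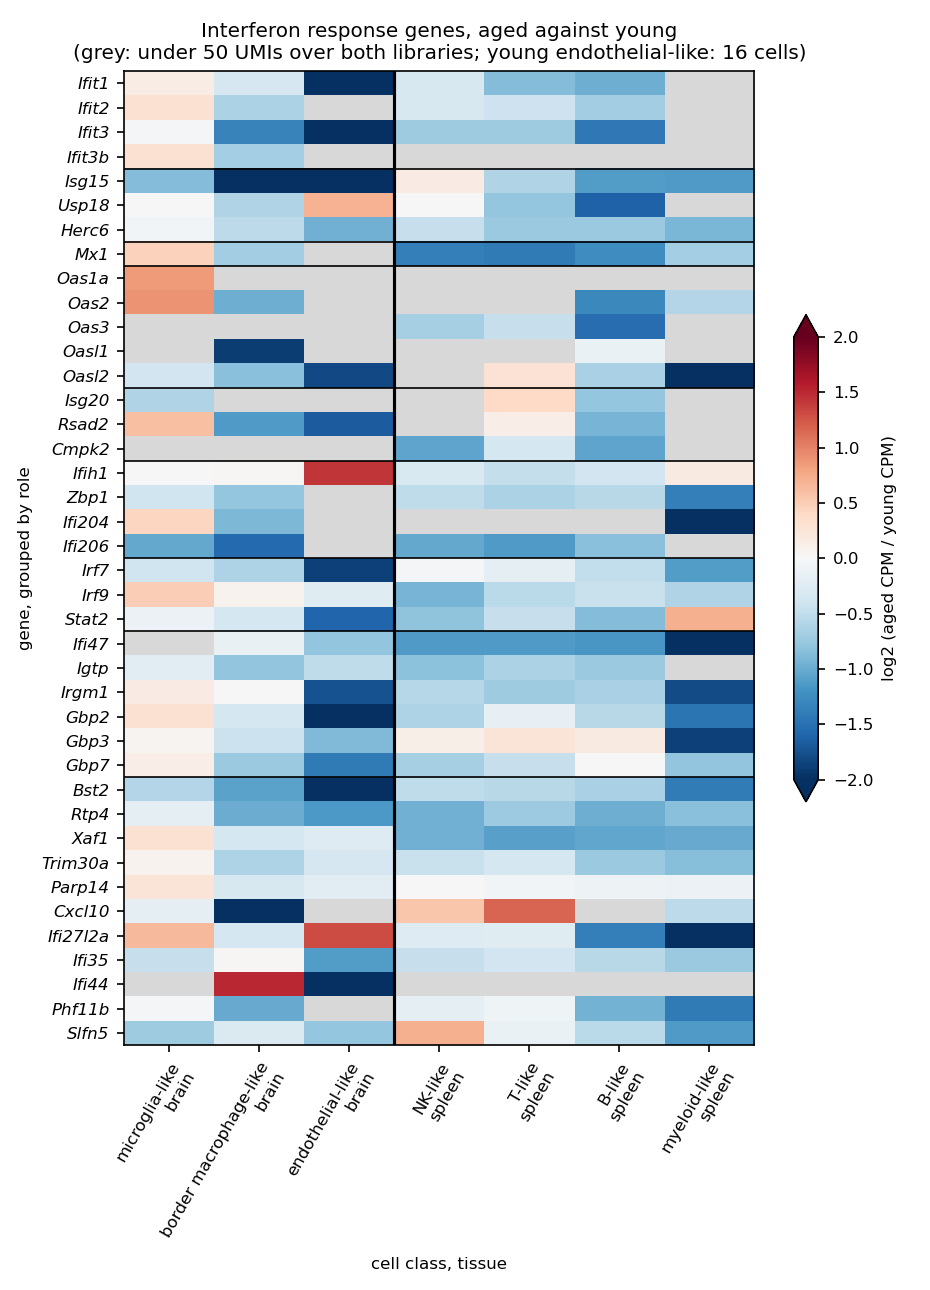
Log2 ratio of aged to young CPM (colour) for each of the 40 interferon response genes (rows, grouped by role) in 7 cell classes (columns, brain left of the thick line). Blue is lower and red higher in the aged library, and grey cells had under 50 UMIs over both libraries or no usable bound. Blue fills most of the B-like, myeloid-like and border macrophage-like columns, and the microglia-like column is mixed.

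Among spleen lymphocytes, 7 members were at least 1.5-fold lower in the aged library in NK-like, T-like and B-like cells alike, of 30 compared in all 3: Ifit3, Mx1, Ifi206, Ifi47, Igtp, Rtp4 and Xaf1. No member was higher in all 3. Of all genes compared in the 3 classes, 1.48% were lower and 1.65% higher in each. In at least 1 of the 3 classes, 28 of 36 members were lower and 2 were higher, Cxcl10 and Slfn5, where 20.1% of all genes were lower and 13.4% higher. Ifi206, a p200-family protein of nuclear DNA sensing, stood at 44.0 CPM (95% interval 37.4 to 51.4) in aged and 89.1 CPM in young NK-like cells. It stood at 53.8 and 118 CPM in T-like cells and at 50.02 and 88.9 CPM in B-like cells, a ratio between 0.456 and 0.563 in the 3 classes. Ifi47, an immunity-related GTPase that acts at pathogen vacuoles, was at 45.7 CPM in aged and 100 CPM in young NK-like cells, 49.2 and 108 CPM in T-like cells, and 13.5 and 30.1 CPM in B-like cells. Its ratios lay between 0.447 and 0.457 in these 3 classes. Xaf1, which binds the apoptosis inhibitor XIAP, had ratios of 0.514 (0.381 to 0.685) in NK-like, 0.471 (0.370 to 0.596) in T-like and 0.485 (0.387 to 0.604) in B-like cells. Mx1, a dynamin-like GTPase that traps viral ribonucleoproteins, was rare, with 8 aged and 43 young UMIs in NK-like cells, 16 and 40 in T-like cells and 27 and 72 in B-like cells. All 3 pairs put the young library higher, with ratios of 0.389, 0.373 and 0.424.

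B-like cells had the most members lower of the 3 lymphocyte classes, and the 11 others lay within 1.5-fold. The IFIT proteins, which bind viral RNA and block its translation, were lower in 3 of 3 compared: Ifit1 at 2.05 CPM in aged and 4.03 in young, Ifit2 at 3.42 and 5.54, and Ifit3 at 4.67 and 12.6. The ISG15 system attaches and removes a ubiquitin-like tag, and its 3 members were lower too. Isg15, the tag itself, stood at 5.58 and 12.1 CPM (ratio 0.462, 0.324 to 0.649), and Usp18, the protease that removes it and damps the receptor, at 2.62 and 8.06 CPM (ratio 0.325, 0.195 to 0.523). Oas2 and Oas3, synthetases that answer double-stranded RNA by activating RNase L, had ratios of 0.409 and 0.347, and Oasl1 one of 0.914 (0.677 to 1.23). The remaining members lower in B-like cells, with their ratios, were Cmpk2 (0.484), Rtp4 (0.510), Phf11b (0.519), Stat2 (0.548), Trim30a (0.595), Herc6 (0.596), Igtp (0.5995), Oasl2 (0.636), Bst2 (0.640) and Irgm1 (0.641). Ifi27l2a, a small interferon-induced membrane protein, held the most UMIs of any member in B-like cells, 1544 in aged and 4492 in young, at 176 CPM (167 to 185) against 452 CPM (439 to 466). Its ratio was 0.389 (0.367 to 0.412). In spleen barcodes with at most 100 UMIs Ifi27l2a stood at 177.6 CPM in aged and 289.1 in young, and the part of this RNA in the B-like values was not tested. Gbp3 and Gbp7, guanylate-binding GTPases, and Parp14, a mono-ADP-ribosyltransferase, had ratios near 1 there: 1.13, 0.995 and 0.928. B-cell markers summed to 6906 CPM in aged and 9085 CPM in young B-like cells, with no marker at 0. The B-like class was mixed. With another clustering seed, a B-like cluster with Scd1, Irf4 and Egr3 among its first genes held 1481 aged and 544 young cells. A B-like cluster led by Ms4a1, Fcer2a and Ly6d held 417 and 1850. The part of these shares in the B-like ratios was not tested.

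In NK-like cells the 13 lower members included 2 of 3 transcription factors and 4 of 6 immunity-related and guanylate-binding GTPases. Irf9, the DNA-binding part of the type I complex, stood at 22.3 CPM in aged and 42.2 in young (ratio 0.528, 0.408 to 0.677), and Stat2, its partner, at 14.5 and 25.4 CPM (ratio 0.569). Irf7, which amplifies interferon production, was at 64.9 and 66.5 CPM, a ratio of 0.977 (0.832 to 1.14). Of the 6 GTPases compared, 4 were lower, among them Gbp7 at 88.9 and 142 CPM, the highest member in these cells, and Gbp3 had a ratio of 1.08 (0.842 to 1.39). The ISG15 system had no member past 1.5-fold: Isg15 stood at 25.4 CPM in aged and 22.7 in young. The remaining members lower in NK-like cells, with their ratios, were Cmpk2 (0.483), Rtp4 (0.514), Igtp (0.564), Ifit3 (0.612), Oas3 (0.631) and Gbp2 (0.655). Slfn5, a Schlafen-family nuclear protein, was the member that was higher, at 13.1 and 7.99 CPM (47 and 60 UMIs; ratio 1.64, 1.09 to 2.44), and 16 of the 47 aged UMIs came from 1 cell. Without the cell with the most Slfn5 UMIs in each library, a choice made after the data were seen, the levels were 8.65 and 6.93 CPM and the ratio was 1.25 (0.773 to 1.99), under 1.5-fold. NK markers summed to 9109 CPM in aged and 14006 in young NK-like cells. With the order-of-magnitude cutoff alone, an NK-like cluster led by Klra8, Klra4 and Klri2 held 484 aged and 1016 young cells. Another, led by Cma1, Gzma and Klra9, held 79 and 704. The part of these shares in the NK-like ratios was not tested.

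T-like cells spanned 3 clusters whose shares differed between the libraries: cluster 17 (Cxcr6, Icos, Zbtb16) with 183 aged and 619 young cells, cluster 19 (Dapl1, Cd8b1, Lef1) with 538 and 581, and cluster 21 (Ctla4, Izumo1r, Foxp3) with 551 and 123. Over the whole class, Ifi27l2a stood at 408 CPM in aged and 482 in young (ratio 0.845, 0.804 to 0.889). Within each cluster the gap was wider: 110 against 310 CPM in cluster 17 (ratio 0.356), 197 against 475 in cluster 19 (ratio 0.415) and 725 against 1289 in cluster 21 (ratio 0.563, 0.520 to 0.610). Cluster 21 had the highest level in both libraries and more of the aged cells. Cxcl10, the chemokine that draws Cxcr3-bearing T and NK cells, was the T-like member that was higher over the class, at 32.7 CPM in aged and 14.5 in young (239 and 99 UMIs; ratio 2.25, 1.78 to 2.88). It was carried by 68 of 1272 aged and 34 of 1323 young cells. In spleen barcodes with at most 100 UMIs Cxcl10 stood at 18.4 and 13.7 CPM. Within cluster 21 its levels were 72.2 and 46.2 CPM (ratio 1.56, 1.07 to 2.36), and within cluster 17 they were 10.0 and 20.3 CPM (ratio 0.494, 0.216 to 1.001). Cluster 21 held 551 of 1272 aged and 123 of 1323 young T-like cells, and the part of these shares in the class ratio was not tested. The members' median log2 ratio was -0.65 in cluster 17, -0.36 in cluster 19 and -0.29 in cluster 21. These within-cluster values were added after the data were seen.

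**Figure D3:**
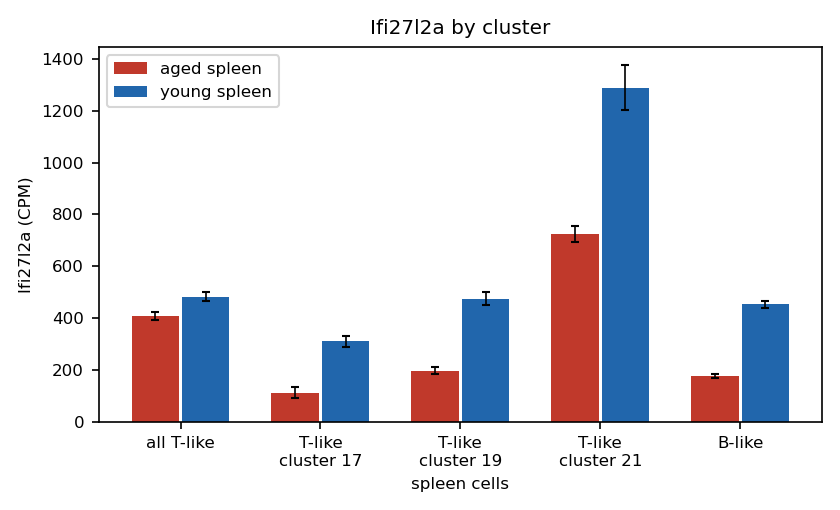
Ifi27l2a level (CPM, y axis from 0) in aged (red) and young (blue) spleen for all T-like cells, 3 T-like clusters and B-like cells, with 95% Poisson intervals of the counts. The 2 libraries lie at 408 and 482 CPM over all T-like cells and further apart in each cluster, at 110 and 310, 197 and 475, and 725 and 1289 CPM.

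The ISG15 system was lower in T-like cells, 3 of 3 members: Isg15 at 25.9 CPM in aged and 39.3 in young (ratio 0.658, 0.544 to 0.796), Usp18 at 4.38 and 7.47, and Herc6, the ligase that attaches Isg15 in mice, at 24.5 and 40.9. Lower too in T-like cells, by their ratios, were Ifit1 (0.549), Rtp4 (0.607), Ifit3 (0.609), Irgm1 (0.610), Igtp (0.643) and Zbp1 (0.646). None of the 3 transcription factors passed 1.5-fold there, with ratios of 0.690 for Irf9, 0.725 for Stat2 and 0.888 for Irf7. Isg20, a 3′ exonuclease, and Rsad2 (viperin), which makes a chain-terminating nucleotide, had ratios of 1.33 (1.03 to 1.72) and 1.09 (0.727 to 1.65). In B-like cells the ratios of Isg20 and Rsad2 were 0.586 and 0.524. A cluster led by Ly6c2, Sidt1 and Cd7 that stayed unnamed (508 aged and 427 young spleen cells) had a members' median of -0.46.

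Myeloid-like spleen cells had the largest share of members lower among the spleen classes, 21 of 26 compared, with 1 higher; of all genes 13.6% were higher and 23.1% lower there. Their members' median log2 ratio was -1.06 (all genes -0.17), and the members' summed level was 1299 CPM in aged and 3117 in young. Bst2 (tetherin), which holds budding virions on the cell surface, stood at 164 and 432 CPM, and Ifi27l2a at 152 and 689 CPM. The ratios of the remaining lower members in myeloid-like cells ran from Ifi47 to Irf9: Ifi47 (0.215), Oasl2 (0.231), Ifi204 (0.241), Gbp3 (0.273), Irgm1 (0.289), Gbp2 (0.365), Phf11b (0.375), Zbp1 (0.386), Isg15 (0.454), Slfn5 (0.456), Irf7 (0.464), Xaf1 (0.496), Herc6 (0.530), Trim30a (0.553), Rtp4 (0.561), Gbp7 (0.579), Ifi35 (0.598), Mx1 (0.623) and Irf9 (0.660). Stat2 was the member that was higher, at 80.9 and 49.4 CPM (119 and 42 UMIs; ratio 1.64, 1.14 to 2.39). Monocyte markers summed to 3016 CPM in aged and 11731 CPM in young myeloid-like cells. Of these, 25 of 384 aged against 41 of 259 young cells were monocyte-like. Red pulp macrophage markers summed to 620.1 and 2546 CPM, erythroid to 403.9 and 1211, and neutrophil markers, higher in aged, to 683.3 and 168.1. With a mitochondrial limit of 20%, a red pulp macrophage-like cluster held 76 aged and 145 young spleen cells. A dendritic-like cluster led by Tbc1d4 and Il1r2 then held 625 and 115. The part of this mixture in the class and cluster values was not tested. Within the dendritic-like cluster alone (359 and 218 cells) the median was -0.59 over 14 members, Bst2 stood at 124 and 526 CPM (ratio 0.235, 0.191 to 0.288) and Stat2 at 87.7 and 51.1 CPM.

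**Figure D4:**
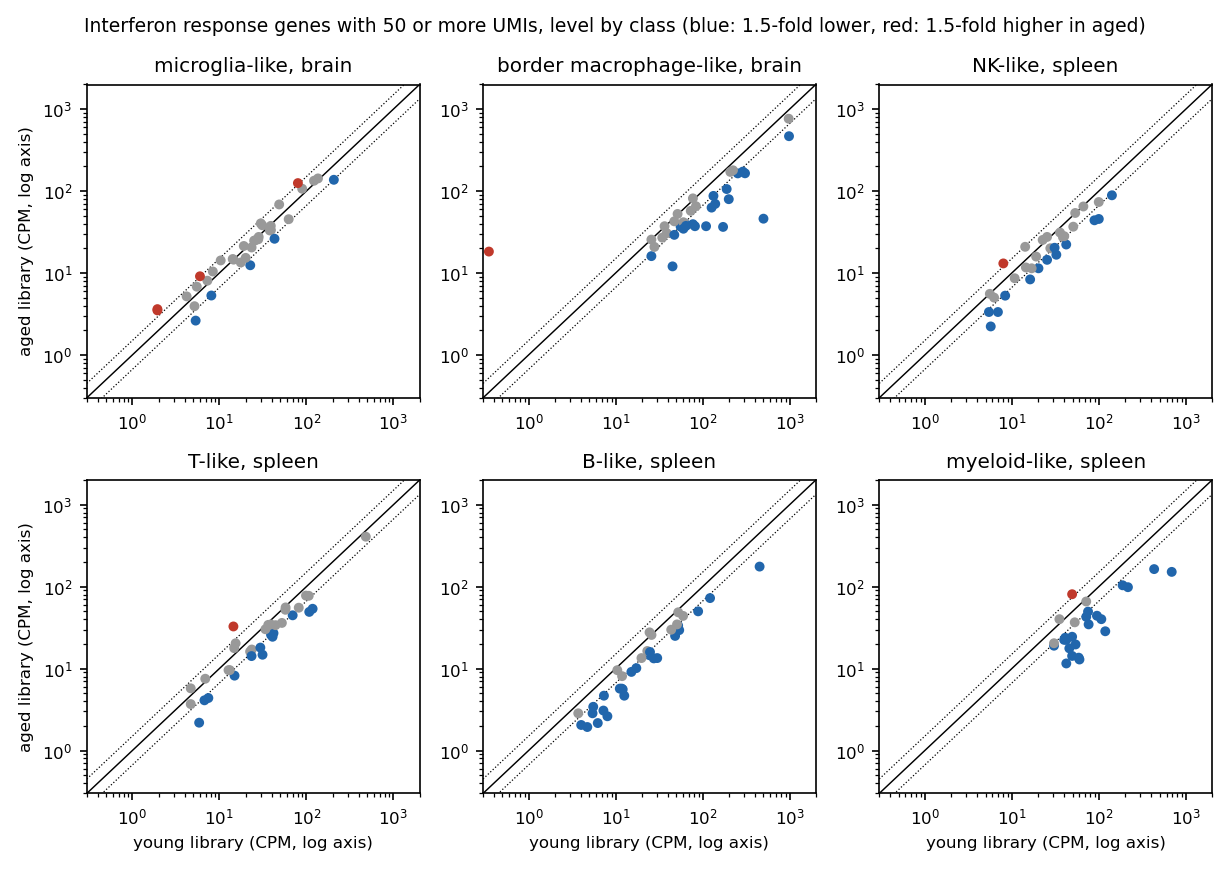
Level of each interferon response gene in the young library (x axis, CPM, log scale) and in the aged library (y axis, CPM, log scale) in 6 cell classes. Blue and red points were at least 1.5-fold lower and higher in aged, the solid line marks equal levels, dotted lines 1.5-fold, and a gene at 0 CPM is drawn at the left edge (Ifi44 in border macrophage-like cells); the points of the B-like and myeloid-like panels lie below the solid line with 1 and 2 exceptions, and those of the microglia-like panel on both sides.

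In the brain, microglia-like cells held 1265 CPM of the members summed in aged and 1274 in young (ratio 0.9925, 0.967 to 1.02). The 5 highest were Trim30a, a regulator of inflammasome and Toll-like receptor signalling, at 143 and 136 CPM, Bst2 at 137 and 207, Gbp7 at 134 and 122, Ifi27l2a at 125 and 80.0, and Parp14 at 107 and 89.5. Lower in aged were Bst2 (ratio 0.664, 0.619 to 0.712), Isg15 at 12.4 and 22.7 CPM (ratio 0.549, 0.440 to 0.687), Slfn5 at 26.2 and 43.1 CPM (ratio 0.608, 0.521 to 0.712), Isg20 at 5.31 and 8.09 CPM, and Ifi206 at 2.63 and 5.34 CPM. Higher were Ifi27l2a (ratio 1.57, 1.42 to 1.73), Rsad2 at 9.13 and 5.99 CPM (ratio 1.52, 1.06 to 2.25), and the RNA-activated synthetases Oas1a and Oas2. Oas1a rested on 56 aged and 12 young UMIs and Oas2 on 58 and 12, and their intervals, 0.955 to 3.69 and 0.992 to 3.82, reach below 1. In barcodes with at most 100 UMIs, which carry RNA from outside cells, Ifi27l2a stood at 196.8 CPM in aged and 128.1 in young brain, and Bst2 at 121.8 and 78.7; the part of this RNA in the microglia-like values was not tested. Ifit1, Ifit2, Ifit3 and Ifit3b all lay within 1.5-fold, at ratios of 0.972 to 1.24. Microglia markers summed to 26410 CPM in aged and 30947 in young microglia-like cells. Markers of other cells were higher in the aged ones: ependymal or choroid markers at 3861 and 776.4 CPM (1 of 9 at 0 in both), erythroid at 274.9 and 36.9 CPM, and mural or fibroblast at 70.5 and 5.83 CPM (3 of 11 at 0 in young). In the 221 aged brain cells of the choroid-like cluster, Ifi27l2a stood at 348.4 CPM (313.8 to 385.7) and Bst2 at 200.5. The part of such RNA in the members' values was not tested.

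Different clusters held most microglia-like cells of the 2 libraries: cluster 1 with 5259 aged and 64 young cells, and cluster 3 with 232 and 2421. Bst2 was lower in aged cells in both, at 142 and 279 CPM in cluster 1 (ratio 0.508, 0.370 to 0.716) and at 118 and 206 CPM in cluster 3 (ratio 0.572, 0.432 to 0.745). Ifi27l2a was higher in both, with ratios of 1.82 (0.989 to 3.81) and 1.69 (1.29 to 2.19). For Isg15 the ratio was 0.481 (0.185 to 1.79) in cluster 1 and 0.180 (0.0216 to 0.662) in cluster 3, where only 2 aged UMIs were counted. The members' summed ratio was 0.781 (0.686 to 0.893) within cluster 1 and 0.881 (0.806 to 0.961) within cluster 3. The members' median within cluster 1 was -0.51 and within cluster 3 -0.16. In cluster 1, 13 of 28 members were lower and 1 higher, against 18.7% and 21.5% of all genes, and in cluster 3, 10 of 27 were lower and 1 higher, against 13.7% and 12.2%. These within-cluster values too were added after the data were seen.

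Border macrophage-like cells carried the members at higher levels than microglia-like cells, 3445 CPM summed in aged and 5959 in young (ratio 0.578, 0.554 to 0.603). Ifi27l2a (765 and 976 CPM) and Bst2 (468 and 985 CPM) led in both libraries. The OAS family was lower in 3 of 3 members compared, with Oas2 at 39.5 and 77.4 CPM, Oasl2 at 106 and 189, and Oasl1 at 12.1 and 45.2. The nucleic acid sensors were lower in 3 of 4: Ifi204 at 165 and 308 CPM, Ifi206 at 37.3 and 110, and Zbp1, the sensor of Z-form nucleic acids that can start necroptosis, at 37.7 and 64.5. Ifih1 (MDA5), the long double-stranded RNA sensor, was at 37.3 and 36.6 CPM. Isg15 stood at 36.6 CPM in aged and 172 in young (ratio 0.213, 0.157 to 0.289), and Ifit3 at 79.7 and 200 CPM (ratio 0.398, 0.311 to 0.514). Of the 3 transcription factors, Irf7 was lower at 87.4 and 133 CPM, and Irf9 stood at 81.5 and 77.4. In border macrophage-like cells the remaining members that were lower, with their ratios, were Rsad2 (0.456), Phf11b (0.496), Rtp4 (0.499), Igtp (0.577), Gbp7 (0.596), Mx1 (0.618), Ifit3b (0.623), Ifit2 (0.645), Trim30a (0.648) and Usp18 (0.660). The member that was higher was Ifi44, with 50 aged UMIs and none in young, so it met the minimum through the aged library alone. With the young library set to a floor of 3 UMIs its ratio was 2.83, a value set by that floor and not a lower bound. Under other settings the count of higher members ran from 0 (another clustering seed, mitochondrial limits of 5% and 20%) to 2 (minimum of 20 UMIs). With the shared young brain barcodes kept, 16 of 34 members were lower and 0 higher in these cells (median -0.53), and the microglia-like median was 0.07.

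Cxcl10 showed the widest gap of any member in border macrophage-like cells, 46.1 CPM in aged and 501 in young (ratio 0.0919, 0.0734 to 0.115), and it rested on few cells. Its 126 aged UMIs lay in 18 of 985 cells and its 233 young UMIs in 9 of 198 cells, with 29 and 63 UMIs in the cell that held the most.

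The purity of the border macrophage-like class differed between the libraries. Border macrophage markers summed to 6162 CPM in aged and 10145 in young, with none at 0, and microglia markers to 8466 and 6053 CPM. In the 406 aged and 151 young cells with fewer microglia than border macrophage marker UMIs, chosen after the data were seen, the own markers were at 11996 and 13238 CPM. There 8 of 22 members were lower and 0 higher, against 8.84% and 14.1% of all genes, the median was -0.30 (all genes 0.02), and the summed ratio was 0.788 (0.741 to 0.838). Isg15 (ratio 0.239, 0.134 to 0.419), Ifit3 (0.443, 0.289 to 0.683), Ifi206 (0.508), Bst2 (0.570, 0.495 to 0.657), Ifi204 (0.622) and Phf11b (0.483) were among the 8. Ifi27l2a had a ratio of 1.06 (0.912 to 1.23) in these cells, and Cxcl10 fell under 50 UMIs, with 35 in aged and 11 in young (36.1 and 33.1 CPM).

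Endothelial-like cells came to 16 in the young brain library, too few to compare, and their values are given as a description. Of 26 members compared, 18 were lower and 3 higher in the aged library, where 26.3% of all genes were lower and 27.9% higher. Isg15 had 85 UMIs over 436 aged cells (45.1 CPM) and 22 UMIs over 16 young cells (459 CPM), and 11 of the 22 came from 1 cell. By ratio, the remaining lower members in endothelial-like cells were Ifit3 (0.143), Gbp2 (0.178), Ifi44 (0.178), Ifit1 (0.185), Bst2 (0.241), Irf7 (0.273), Oasl2 (0.285), Irgm1 (0.300), Rsad2 (0.315), Stat2 (0.335), Gbp7 (0.376), Rtp4 (0.4503), Ifi35 (0.461), Herc6 (0.515), Gbp3 (0.544), Ifi47 (0.576) and Slfn5 (0.585). Ifi27l2a had 290 aged UMIs and none in young, and its ratio of 2.46 was set by the floor of 3 UMIs. Usp18 and Ifih1, with 1 young UMI each, had ratios of 1.63 (0.282 to 65.2) and 2.70 (0.473 to 107). Endothelial markers summed to 10918 CPM in aged and 20890 in young cells, and microglia markers to 12854 and 5024.

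Over both brain macrophage classes, 3 of 33 members compared in both were lower in the aged library in each (Isg15, Ifi206 and Bst2), and none was higher in each, where 1.84% of all genes were lower in each and 4.16% higher. In opposite directions were Oas2, Rsad2 and Ifi27l2a, higher in aged microglia-like and lower in aged B-like cells. In border macrophage-like cells their log2 ratios were -0.972, -1.13 and -0.352, the sign of the B-like values, the last within 1.5-fold. Cxcl10 was lower in aged border macrophage-like and higher in aged T-like cells. Slfn5 was lower in aged microglia-like and higher in aged NK-like cells, the last resting on the 1 cell given above. In T-like and B-like cells Slfn5 was at -0.137 and -0.546. The share of all genes in opposite directions was not computed. Ifi206 was the member lower in these 2 classes and in all 3 lymphocyte classes. Members near the line for counting show how it cuts: in NK-like cells Gbp2 (ratio 0.655) counted as lower and Irgm1 (0.675) did not, in T-like cells Isg15 (0.658) did and Bst2 (0.678) did not, and in microglia-like cells Rsad2 (1.52) counted as higher and Irf9 (1.41) did not.

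The members' transcripts were spread unevenly over cells. After each cell was thinned to 1000 UMIs, leaving out 55 aged and 18 young shallower cells, border macrophage-like cells had a median of 3 member UMIs in both libraries, and 4.84% of 930 aged cells (3.55 to 6.42, exact binomial) against 13.9% of 180 young cells (9.19 to 19.8) had 10 or more. In microglia-like cells the median was 1 in both, and 0.546% of 5859 aged (0.374 to 0.770) against 1.31% of 2372 young cells (0.890 to 1.85) had 10 or more. In B-like cells the shares were 0.368% of 1900 (0.148 to 0.758) and 1.15% of 2357 (0.756 to 1.66). In T-like cells they were 0.635% of 1259 (0.275 to 1.25) and 1.08% of 1296 (0.592 to 1.81), and in NK-like cells 0.402% (0.0829 to 1.17) and 0.513% (0.235 to 0.971). In myeloid-like cells 0 of 288 aged cells stood against 3.33% of 150 young cells (1.09 to 7.61). The 0 allows a share of up to 1.04% by 3 counts of the total and 1.27% by the exact interval. Thinning left out 96 of 384 aged and 109 of 259 young myeloid-like cells. Their class median depth was 2564 UMIs in aged and 1258 in young, so the shares describe the deeper cells only. In endothelial-like cells the shares were 1.37% (5 of 366 aged cells, 0.445 to 3.16) and 14.3% (2 of 14 young cells, 1.78 to 42.8). Each interval covers the count of cells in 1 library, not differences between animals. Whether the intervals of the 2 libraries overlap is thus no comparison of aged and young mice. Without thinning the shares were 34.4% and 41.9% in border macrophage-like and 4.66% and 6.31% in microglia-like cells.

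**Figure D5:**
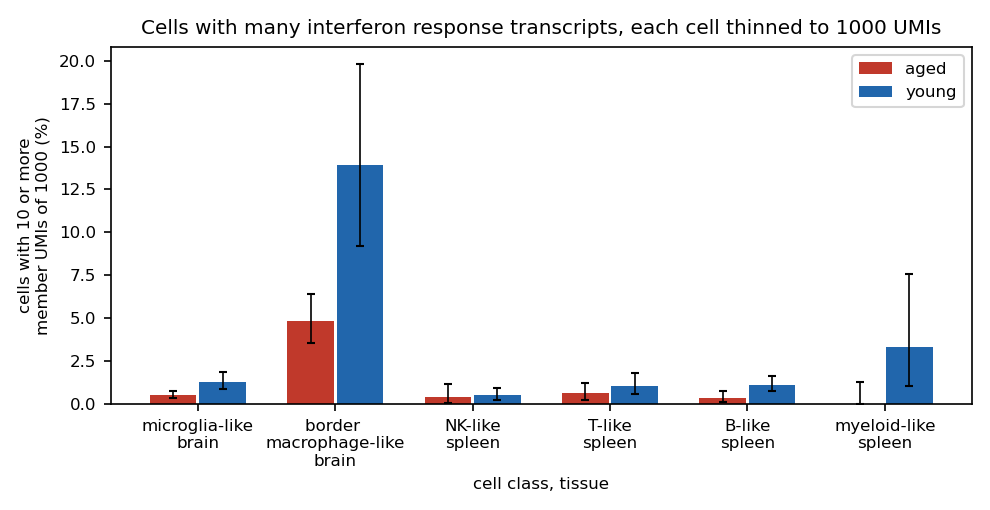
Share of cells with 10 or more interferon response UMIs of 1000 (y axis, percent, from 0) in aged (red) and young (blue) libraries by cell class, with 95% exact binomial intervals of the cell counts. Border macrophage-like cells stand highest, at 4.84% in aged and 13.9% in young. The intervals do not cover differences between animals, and endothelial-like cells are not drawn.

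Other genes of the pathway were read from a list of 59, from ligands to further targets, of which 43 to 48 were compared in each class other than endothelial-like. Their median log2 ratio was 0.17 in microglia-like cells (all genes 0.08). There 5 of 48 were higher and 2 lower, against 12.9% and 4.70% of all genes. The median was -0.03 in border macrophage-like cells (all genes 0.05), with 4 of 46 higher and 5 lower, against 18.2% and 10.0%. In NK-like cells it was -0.24 (all genes -0.13), with 1 of 43 higher and 9 lower, against 6.46% and 11.1%. T-like cells gave -0.29 (all genes -0.07), with 4 of 45 higher and 7 lower, against 8.58% and 9.16%. B-like cells gave -0.37 (all genes -0.12), with 4 of 46 higher and 11 lower, against 5.33% and 9.40%. Myeloid-like cells gave -0.52 (all genes -0.17), with 4 of 43 higher and 19 lower, against 13.6% and 23.1%. Among ligands, Ifnb1 (interferon beta) had 1 UMI in all 7 classes together, in aged microglia-like cells. Ifng (interferon gamma) stood at 456 CPM in aged and 531 in young NK-like cells (ratio 0.860, 0.811 to 0.911), and at 92.6 and 190 CPM in T-like cells (ratio 0.487, 0.443 to 0.534). The type I receptor chain Ifnar1 had ratios of 0.999 in NK-like, 1.14 in T-like, 0.771 in B-like and 1.19 in microglia-like cells. The gamma receptor chain Ifngr1 was lower in aged microglia-like cells, 636 against 1045 CPM (ratio 0.608, 0.590 to 0.628), and higher in aged T-like cells, 243 against 146 CPM (ratio 1.67). B2m, the light chain of MHC class I, was the target with the most UMIs and was higher in the aged brain, at 2010 and 820 CPM in microglia-like and 2230 and 1062 CPM in border macrophage-like cells, with ratios of 2.45 (2.38 to 2.53) and 2.10 (1.92 to 2.31). In the spleen its ratios were 1.014 in NK-like, 0.815 in T-like and 1.03 in B-like cells.

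Genes of the immediate early response to handling and stimulation were lower on balance in aged microglia-like and border macrophage-like cells, as the members were in border macrophage-like cells, and higher in the aged spleen classes, where the members were lower. Over this list of 26 genes, the median log2 ratio was -0.64 in microglia-like (0 higher, 11 lower of 22) and -0.80 in border macrophage-like cells (0 and 9 of 17). It was 0.24 in endothelial-like cells (6 and 6 of 17) and 0.61 in NK-like cells (13 and 1 of 26). It was 0.46 in T-like (8 and 3 of 26), 0.24 in B-like (8 and 1 of 25) and 1.02 in myeloid-like cells (18 and 0 of 26). Of all genes, 12.9% were higher and 4.70% lower in microglia-like and 18.2% and 10.0% in border macrophage-like cells. These shares were 27.9% and 26.3% in endothelial-like, 6.46% and 11.1% in NK-like, and 8.58% and 9.16% in T-like cells. In B-like cells they were 5.33% and 9.40%, and in myeloid-like cells 13.6% and 23.1%. RNA outside cells was read from barcodes with at most 100 UMIs: the members summed to 1269 CPM in aged and 939.5 in young brain droplets, and to 876.9 and 1347 CPM in aged and young spleen droplets. The part of either in the members' values was not tested.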

How the data were processed

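Cells sorted for high CD45 from aged and young mouse brain and spleen were profiled by droplet 3′ RNA sequencing, 1 library per group. The authors deposited unfiltered matrices of UMI counts per gene and barcode, written by software version 3.1.0 per the file headers, with 31053 genes and 6794880 barcodes each. Per the submitters' processing notes, the tool was Cell Ranger 1.3.1 and the build GRCh38, which is human, whereas the genes in the matrices are mouse genes. No aligner settings are stated. The authors' deposited table of cluster markers gives the fraction of cells with each gene, printed here as percent.

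Barcodes with at least 500 UMIs were called by an order-of-magnitude cutoff or by a test against the profile of barcodes with at most 100 UMIs (10000 simulations, false discovery rate 0.01). Cells needed 250 genes and at most 10% mitochondrial UMIs. Doublets were scored with scanpy 1.11.5 (scikit-image 0.26.0): the automatic threshold removed 163 aged and 237 young spleen cells. In the brain libraries it marked 0% and 0.0342%, so the 1189 and 616 highest scores were removed. Young brain barcodes with more UMIs in another library were left out. Cells were clustered (leidenalg 0.10.2, 2000 variable genes without the members, 30 components, 15 neighbours, resolution 1) and named from marker lists. UMIs were summed per class and library and scaled to CPM; intervals (scipy 1.17.1) are 95% and cover counting error only. A gene at 0 in 1 library was set to a floor of 3 UMIs, and left out where the bound lay on the wrong side of 1. The counting of genes past the fold was tested on simulated data, drawn as independent Poisson counts per gene with planted changes. Such data hold no clumping of UMIs in cells, RNA from outside cells or difference in cell mixture, so the test does not cover these. Python 3.11.15, numpy 2.4.6, pandas 2.3.3, anndata 0.12.19, scikit-learn 1.9.0 and matplotlib 3.10.9 were used.

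Members named with values are those past 1.5-fold with at least 50 UMIs, the 5 highest in each class, and those that differ in direction between spleen lymphocytes and brain macrophages. The members and lists were chosen with earlier results of these data known. Alternatives covered cell calling, mitochondrial limits, doublets, clustering, scaling, UMI minimum, fold and depth. The result of 1 other pathway gene is not reported here.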

Additional observations from a re-analysis of the deposited data

Results flagged for a closer look

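In 5 members the aged to young log2 ratio had opposite signs, past 1.5-fold on both sides, in a brain macrophage class and in a spleen lymphocyte class. Each rests on 1 library per group, and the difference between the tissues was not tested. The share of all genes that meet the same rule was not computed, so the count of 5 is not set against a background. Oas2 was at 0.90 in microglia-like and -1.29 in B-like cells, and Rsad2 at 0.61 and -0.93 in these classes. Ifi27l2a was at 0.65 in microglia-like and -1.36 in B-like cells. In border macrophage-like cells Oas2, Rsad2 and Ifi27l2a were at -0.972, -1.13 and -0.352, the sign of the B-like values. Rsad2 was at 0.127 in T-like cells. Slfn5 was at -0.72 in microglia-like and 0.71 in NK-like cells, where 16 of its 47 aged UMIs came from 1 cell; without the cell with the most Slfn5 UMIs in each library the NK-like value was 0.32 (ratio 1.25), under 1.5-fold. Cxcl10 was at -3.44 in border macrophage-like and 1.17 in T-like cells, and 9 young border macrophage-like cells held its 233 young UMIs. In border macrophage-like cells with fewer microglia than own marker UMIs, Cxcl10 had 35 aged and 11 young UMIs, at 36.1 and 33.1 CPM. Its ratio was 0.494 within T-like cluster 17 and 1.56 within T-like cluster 21. Without the cell with the most UMIs of the gene in each library, the other 4 members kept their direction past 1.5-fold in both classes. The count of members higher in microglia-like cells, 4 of 35 here, was 1 of 29 with thinning and 2 of 35 with median-of-ratios scaling. It was 4 of 35 with a mitochondrial limit of 20%, 1 of 31 with 5%, and 8 of 33 with the order-of-magnitude cutoff alone. The Oas2 interval in microglia-like cells reached below 1. In barcodes with at most 100 UMIs, Ifi27l2a stood at 196.8 CPM in aged and 128.1 in young brain, and its part was not tested.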

How the results depend on the processing

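The members' median log2 ratio stayed below 0 under every alternative run in NK-like (-0.598 to -0.378), T-like (-0.65 to -0.289), B-like (-0.824 to -0.622), myeloid-like (-1.59 to -0.594) and border macrophage-like cells (-1.0 to -0.301). In microglia-like cells it ran from -0.513 to 0.202. Medians of single settings included -0.625 (median-of-ratios scaling) and -0.622 (mitochondrial limit of 5%) in B-like cells, -1 with the order-of-magnitude cutoff alone in border macrophage-like cells, -1.59 with cells thinned to 1000 UMIs in myeloid-like cells, and 0.0465, the other sign, with thinning in endothelial-like cells (-1.13 in the report's setting). Endothelial-like cells gave -1.58 with a mitochondrial limit of 5% and -0.556 with a minimum of 200 UMIs, border macrophage-like cells -0.411 with a limit of 20%, and microglia-like cells 0.202 with the order-of-magnitude cutoff alone. Members past the fold numbered 9 of 35 compared in microglia-like, 22 of 36 in border macrophage-like and 21 of 26 in endothelial-like cells. In the spleen they numbered 14 of 31 in NK-like, 14 of 34 in T-like, 24 of 35 in B-like and 22 of 26 in myeloid-like cells. With thinning, which leaves fewer UMIs and fewer members compared, they numbered 4 of 29 in microglia-like and 12 of 24 in border macrophage-like cells. They then numbered 3 of 5 in endothelial-like, 9 of 17 in NK-like, 10 in B-like and 2 in myeloid-like cells. With a minimum of 200 UMIs, which leaves fewer members, they numbered 4 of 26, 10 of 15, 4 of 6 and 7 of 18, then 12 and 4, in the same order. At 2-fold they numbered 1 in microglia-like, 10 in border macrophage-like, 4 in NK-like, 5 in T-like, 10 in B-like and 14 in myeloid-like cells. A mitochondrial limit of 20% gave 10 of 26 in border macrophage-like cells. One of 5% gave 9 in T-like, 13 in B-like and 13 in myeloid-like cells. The order-of-magnitude cutoff alone also gave 13 in myeloid-like cells, and the cause was not tested. Shares of all genes past the fold under these alternatives are not given, so the counts have no background beside them. Alternatives chosen after seeing the data gave -0.301 and 8 in border macrophage-like cells with fewer microglia than own marker UMIs, -0.513 and 14 in microglia-like cluster 1, -0.65 in T-like cluster 17, 8 in T-like cluster 21, and -0.594 and 8 in dendritic-like cluster 12. No paired analysis was possible because each group is 1 library and the replicate numbers pair nothing.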

Other observations

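Outside the compared classes, Rsad2 stood highest in an erythroid-like cluster led by haemoglobin genes, Slc4a1 and Alas2. It reached 1380 CPM (95% Poisson interval 1252 to 1518) in 29 aged spleen cells, 2890 CPM (2405 to 3443) in 13 young spleen cells and 561 CPM (478 to 656) in 57 aged brain cells. At least 1 Rsad2 UMI was found in 79.3%, 100% and 54.4% of these cells. Isg15 stood at 1037 CPM in the aged and 416 CPM in the young spleen cells of this cluster, and Isg20 at 692 and 509 CPM. In the authors' deposited table, an aged spleen cluster led by Slc4a1, Tmcc2 and Alas2 lists Rsad2 in 83.3% of its cells against 2% of the others. The authors' deposited table gives 80% against 5.5% for Isg20 and 80% against 6% for Isg15 in that cluster.

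Monocyte-like cells of the aged brain numbered 42 and carried the members at 6408 CPM summed (6042 to 6790), with Ifi27l2a at 2459 CPM (2234 to 2700) and detected in 92.9% of them.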
